A study of Homo sapiens with 8 samples.

Results

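The genes studied were IL6R, the receptor for interleukin-6, and 9 further genes of the signalling route that runs through gp130, in the ESCC cell line KYSE850 after silencing of KHSRP. The 10 genes were IL6R, IL6ST, LIFR, OSMR, IL6, IL11, LIF, JAK1, STAT3 and SOCS3, of 20249 genes on the array with a symbol. IL6R was chosen by its rise with KHSRP siRNA on these same arrays, so its values are a description without a test. The other 9 genes were chosen by their role. Every probe whose RefSeq accession led to one of the 10 symbols was taken, which gave 19 of 42405 probes, and 15 of the 19 passed the filter on dim signals and entered the test.

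KYSE850 is a human ESCC line, that is, cultured cells of a squamous carcinoma of the esophagus. Messenger RNA was measured on 8 one-colour arrays, 4 from cells given a control siRNA (control 1 to 4) and 4 from cells given siRNA against KHSRP (KHSRP 1 to 4), with no other treatment named in the labels. KHSRP encodes an RNA-binding protein that acts on microRNA maturation, splicing and mRNA decay, and the comparison asked which mRNAs differed once it was lowered. The labels say neither which KHSRP siRNA went onto which array nor whether the replicates were separate cultures, so p-values measure the spread between these samples, which may be technical.

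Interleukin-6 binds IL6R, and the pair then joins gp130, the signal-transducing receptor chain encoded by IL6ST. Interleukin-11, LIF and oncostatin M use gp130 with receptor chains of their own, among them LIFR and OSMR. Inside the cell gp130 holds JAK kinases such as JAK1, which phosphorylate STAT3, and STAT3 switches on genes that include SOCS3, a feedback inhibitor of gp130. In squamous epithelium this route is known for its part in inflammation and in the growth of carcinoma cells.

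Levels are given as the log2 of the background-subtracted spot intensity minus the 75th percentile of all probes on the same array, so that 0 stands for a probe at that percentile. A probe counted as detected on an array when it was well above background by the scanner software's own criterion, and it was tested when detected throughout at least 1 group. Probes bind with unequal strength, so levels of different probes were not set against each other. Differences are KHSRP siRNA minus control siRNA on the log2 scale, with the SE of limma's fit and p-values adjusted by Benjamini-Hochberg over all 18761 tested probes. A call is an adjusted p under 0.05.

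Silencing was checked first. At its brighter probe, KHSRP stood at 6.03, 5.81, 6.39 and 6.08 in controls 1 to 4 and at 2.52, 2.58, 2.88 and 2.85 in KHSRP 1 to 4. Every KHSRP siRNA array lay below every control, with a difference of -3.37 (SE 0.16). Of the 8 arrays, 45.1% to 49.4% of probes were well above background, and no spot was saturated. Across all probes, 1039 of 18761 (5.54%) were called, 360 higher and 679 lower, and scaling to the median of each array in place of the 75th percentile gave 98 higher and 472 lower. The 6 squamous markers KRT5, KRT14, TP63, KRT6A, DSG3 and TRIM29 were detected on all 8 arrays, and their summed linear level, in multiples of the 75th percentile, ran from 35.7 to 218 in controls and from 32.3 to 263 with KHSRP siRNA. Of 6 leukocyte, 5 fibroblast and 5 hepatocyte markers, 1 each was detected on all 8 arrays (CD14, COL1A1 and SERPINA1), while PTPRC, COL1A2 and ALB were not.

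The arrays also differed within each group. KRT5, a basal keratin of squamous epithelium, stood at 5.84, 4.30, 5.84 and 3.11 in controls 1 to 4 and at 5.92, 4.46, 2.92 and 5.98 in KHSRP 1 to 4. Controls 1 and 3 and KHSRP 1 and 4 were therefore the 4 highest arrays, and each group held 2 of them. The other 5 squamous markers had the same 4 arrays highest. In RNA from a whole culture, fewer cells of a type and less RNA per cell cannot be told apart. By the series matrix numbers, in which KHSRP 4 carries number 3, these are numbers 1 and 3 of both groups, and the remaining arrays are numbers 2 and 4. The labels do not say what these numbers stand for, and each slide held arrays of both kinds, so the arrays were not grouped by this division and the values of each are given below. Over all tested probes without a missing value, the same 4 arrays were the 4 highest or the 4 lowest for 4811 of 18760 (25.6%). Among the tested probes of the 10 genes they were the 4 highest for 5, the 4 lowest for 3 and neither for 7. IL6R was among the 7, since its groups did not overlap. Within each group its 2 highest arrays were the same as those of KRT5, though controls 1 and 4 were close at -2.37 and -2.38.

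To show where transcription of the receptor and of the ligands with the clearest array pattern starts, the 250 bases before the annotated RefSeq start of IL6R, IL6 and IL11 are given from assembly GRCh38.p14, 5′ to 3′ on the strand of the gene. The stretches are chr1:154405093-154405342 on the plus strand for IL6R, chr7:22726950-22727199 on the plus strand for IL6 and chr19:55370464-55370713 on the minus strand for IL11. Capitals mark CCAAT in IL6 and TGAGTCA in IL11, where a CCAAT further from the start is left in lower case, and IL6R has neither in the stretch shown.
IL6R: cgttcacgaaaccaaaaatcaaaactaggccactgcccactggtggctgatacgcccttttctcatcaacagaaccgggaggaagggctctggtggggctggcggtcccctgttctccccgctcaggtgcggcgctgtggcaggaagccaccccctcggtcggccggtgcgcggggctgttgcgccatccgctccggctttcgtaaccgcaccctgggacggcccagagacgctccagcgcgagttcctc
IL6: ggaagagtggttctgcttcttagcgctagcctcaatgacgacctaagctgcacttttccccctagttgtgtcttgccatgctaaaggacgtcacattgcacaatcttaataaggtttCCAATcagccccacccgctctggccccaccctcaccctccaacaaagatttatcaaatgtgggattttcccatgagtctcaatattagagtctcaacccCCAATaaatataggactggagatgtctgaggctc
IL11: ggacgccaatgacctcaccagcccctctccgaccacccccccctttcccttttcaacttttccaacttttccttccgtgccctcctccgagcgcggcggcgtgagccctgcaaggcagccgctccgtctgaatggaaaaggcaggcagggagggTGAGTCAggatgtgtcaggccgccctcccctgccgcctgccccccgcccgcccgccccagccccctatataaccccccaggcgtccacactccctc
Motifs were searched on both strands in windows from 250 bases before to 50 bases after each start. TGAGTCA, the AP-1 motif, was in 4.96% of 34943 windows, and among the 14 windows of 9 of the 10 genes it was found in IL11, beginning 96 bases before the start, and in IL6R, 37 bases after it. CCAAT was in 34.6% of windows and in those of IL6, IL11, IL6ST, LIFR and STAT3. TTCNNNGAA, the core letters of a STAT motif, was in 7.66% of windows and, among these genes, in 2 windows of LIFR. No motif overlapped another in the bases printed. LIF had no entry in the promoter table.

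IL6R lies on chromosome 1 from 154405343 to 154469450 in GRCh38.p14 and had a single probe, which was detected on all 8 arrays. Its level was -2.37, -2.57, -2.17 and -2.38 in controls 1 to 4 and -0.79, -1.37, -1.14 and -0.31 in KHSRP 1 to 4. The groups did not overlap, with KHSRP 4 the highest and KHSRP 2 the lowest of the silenced arrays. The mean rose from -2.37 ± 0.16 to -0.90 ± 0.46 (SD, n = 4 each), a difference of 1.47 or 2.76-fold, and no test is attached because this difference chose the gene. On the linear scale the processed signal was 18.8 to 22.5 units in controls and 42.7 to 70.5 with KHSRP siRNA.

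The rise of IL6R was of similar size on both slides, which each held replicates 1 and 2 or replicates 3 and 4 of both groups. It was 1.39 on slide 1 and 1.55 on slide 2 (n = 2 against 2 each). When arrays were paired by the numbers of the authors' series matrix, the differences for numbers 1 to 4 were 1.57, 1.20, 1.85 and 1.24. Ranked by rise, IL6R was number 5 of 12125 genes tested. Among the 14466 probes with a symbol that were detected on all 8 arrays it was number 3, after SPRYD4 at 1.86 and before MPRIP at 1.44. The size of the rise depended on the processing. The normexp background correction was run on median spot and background brightness, not on the scanner software's processed signal. It added an offset of 50 units, more than the signal of IL6R itself in every control, and the difference was 0.54. Which of these changes lowered it was not tested.

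**Figure D1:**
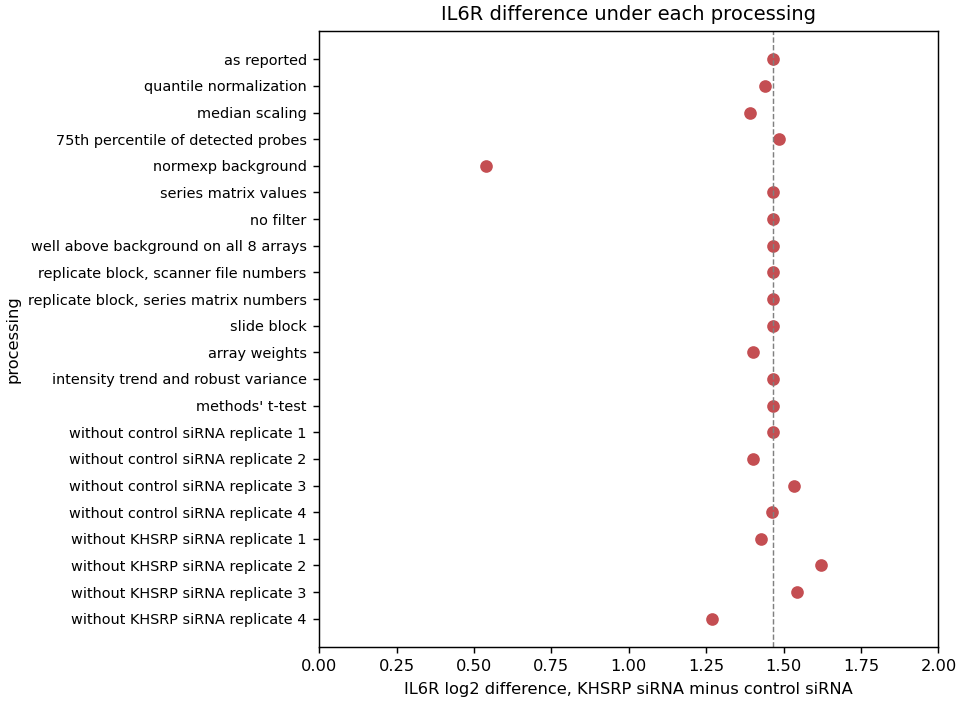
The x axis gives the log2 difference of IL6R, KHSRP siRNA minus control siRNA, and each row is one way of processing, including each array left out in turn. The dashed line marks the reported 1.47. The points lie between 1.27 and 1.62 except for the normexp background, at 0.54.

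Neighbouring genes were read next. The 3 nearest annotated genes with a tested probe on each side were LTAP1, UBAP2L and HAX1 on one and UBE2Q1, ADAR and KCNN3 on the other. None of the 6 was called, beside 6.19% of all genes. The largest positive difference was that of UBE2Q1, a ubiquitin-conjugating enzyme gene, at 0.38 (SE 0.11, adjusted p = 0.0996 by limma). Its groups did not overlap, as for 14.8% of all tested probes. The largest negative difference was that of the potassium channel gene KCNN3, whose arrays ran from -2.83 to -0.02 and overlapped between groups, at -0.50 (SE 0.61, adjusted p = 0.754 by limma). With the series matrix numbers as a block, which called 33.0% of all genes, the adjusted p-values of UBE2Q1 and KCNN3 were 0.0162 and 0.0154. With the scanner-file numbers, by which arrays are named here, as a block, those of the same genes were 0.257 and 0.816.

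Over the 8 arrays, the probes whose level was most like that of IL6R were C2orf68 (Pearson r = 0.989), RAB7A (0.988), SYPL1 (0.986), SQOR (0.986) and GUSBP11 (0.984), all with a higher mean after KHSRP siRNA. These correlations share the step between the groups. With each group's mean removed, the most alike were PSMC2 (r = 0.987), SHISA4 (0.986), PROCA1 (0.979), PRDM13 (0.977) and SLC12A7 (0.977), over the same 8 arrays. The values are descriptions of 8 points that share scaling and array.

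None of the other genes was called. Of the 9, 8 had a tested probe, 4 were higher and 4 lower with KHSRP siRNA at their brightest tested probe, and 0 of 8 were called by limma, against 751 of 12125 genes (6.19%). None of the 8 had an unadjusted p under 0.05, against 20.8% of all genes, and none had groups that did not overlap, against 14.8% of all tested probes. Their median difference was -0.04, beside 0.01 over all genes tested. With the series matrix numbers as a block, which called 33.0% of all genes, 2 of the 8 were called, IL6ST lower and LIF higher. The scanner-file numbers, by which arrays are named here, were also used as a block. The adjusted p-values of IL6ST and LIF by limma were then 0.823 and 0.855. With that block no gene of the route, those of the lists below included, was called at its brightest tested probe. The labels do not say whether either numbering pairs the arrays.

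**Figure D2:**
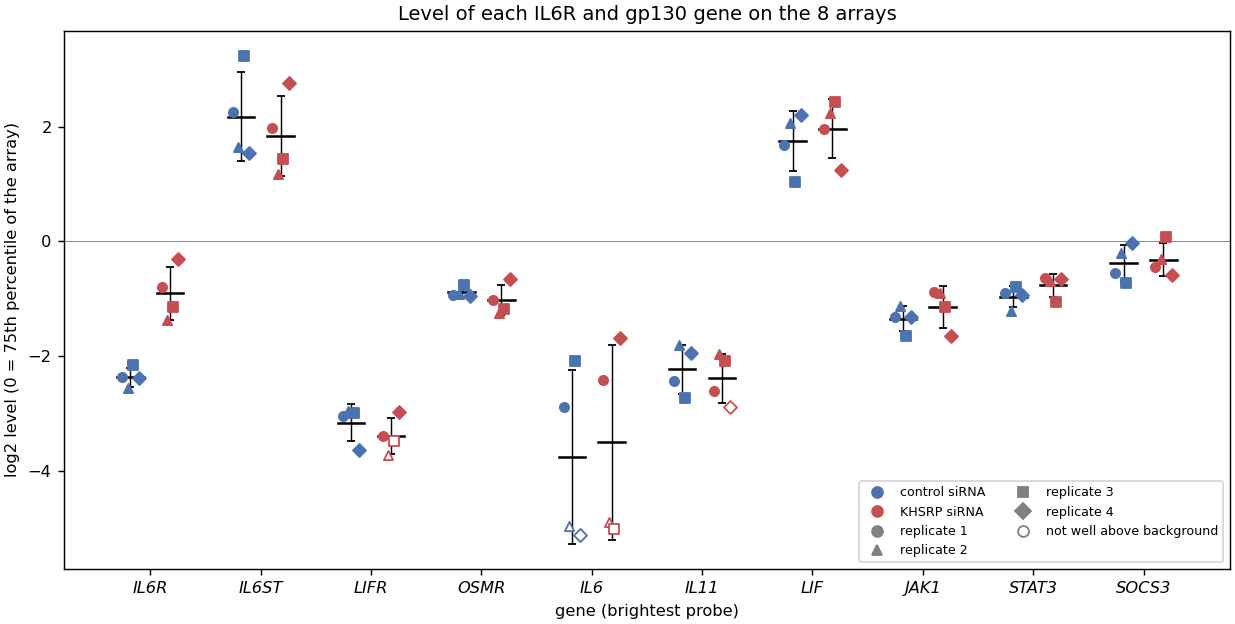
Each point is the log2 level of a gene's brightest probe on 1 array, with 0 at the 75th percentile of that array, blue for control siRNA and red for KHSRP siRNA. The shape gives the replicate, open symbols mark probes not well above background, black bars are means and whiskers SD (n = 4). The groups are apart only for IL6R, and IL6 is split within both groups. Heights of different genes cannot be compared.

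IL6ST, the gene of gp130, lies on chromosome 5 from 55935095 to 55994963 and had 7 probes, of which 6 were tested. At the brightest the level was 2.25, 1.65, 3.24 and 1.55 in controls and 1.98, 1.18, 1.44 and 2.77 with KHSRP siRNA. Control 3 and KHSRP 4 were the highest, and the groups overlapped over most of their range. The difference was -0.33 (SE 0.45, 95% confidence interval -1.36 to 0.69, adjusted p = 0.784 by limma), and with the series matrix numbers as a block the adjusted p was 0.0372.

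The other tested IL6ST probes followed the same arrays. A_33_P3287338 stood at 0.19, -0.69, 0.95 and -0.71 in controls and at -0.15, -0.83, -1.21 and 0.21 with KHSRP siRNA (difference -0.43, SE 0.44, adjusted p = 0.685 by limma, 0.0327 with that block). A_33_P3233834 stood at -0.71, -1.78, -0.30 and -2.07 in controls and at -1.28, -1.83, -2.66 and -0.81 with KHSRP siRNA, where it was detected on 3 of 4 arrays (difference -0.43, SE 0.49, adjusted p = 0.732 by limma, 0.0343 with that block). In both, controls 1 and 3 and KHSRP 1 and 4 were above the remaining arrays of either group. A_23_P502470 (-0.25, SE 0.41), A_32_P45168 (-0.11, SE 0.44) and A_33_P3233843 (-0.19, SE 0.31) were not called with or without the block. All 6 differences were below 0. A_33_P3233834 and A_33_P3233843 were each detected on 4 controls and 3 KHSRP siRNA arrays, so they entered the test through the group in which they were higher. When control 3 was left out, 3 of the 6 differences turned to small positive values (0.02 to 0.20), and that of A_33_P3233843 did so with normexp (0.04). The difference of A_32_P45168 turned positive under 4 alternatives, the one without control 3 among them. Of the 6 probes, 5 had the 4 arrays named above as their highest. The probe not tested, A_32_P223777, was detected on 3 controls and on 1 KHSRP siRNA array, and ran from -4.29 to -1.96 in controls and from -4.60 to -2.70 with KHSRP siRNA.

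The spread of IL6ST within groups was large for this data set. The residual SD of its tested probes was 0.50 to 0.82, at percentiles 83.9 to 95.4 of all tested probes, whose median was 0.264. With the block the median over all tested probes was 0.124. The probes share 1 gene and are no replicates of each other.

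LIFR, which pairs with gp130 to receive LIF, stood at -3.05, -2.96, -3.001 and -3.64 in controls and at -3.41, -3.72, -3.48 and -2.98 with KHSRP siRNA. It was detected on all 4 controls and on 2 of the 4 KHSRP siRNA arrays, so it entered the test through the group in which it was higher. The groups overlapped. The difference was -0.23 (SE 0.21, 95% confidence interval -0.71 to 0.24, adjusted p = 0.631 by limma), from -0.12 without KHSRP 2 to -0.39 without control 4. OSMR, the chain that joins gp130 for oncostatin M, stood at -0.94, -0.92, -0.76 and -0.95 in controls and at -1.03, -1.25, -1.18 and -0.66 with KHSRP siRNA. Of its silenced arrays 3 were below all controls and KHSRP 4 was above them, and the difference of -0.14 (SE 0.15, 95% confidence interval -0.47 to 0.20) was not called (adjusted p = 0.704 by limma). Without KHSRP 4 it was -0.26, and without KHSRP 2 it was -0.07.

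Among the ligands, IL6 had the widest spread and no test. Its brighter probe stood at -2.89, -4.97, -2.09 and -5.13 in controls and at -2.42, -4.90, -5.01 and -1.69 with KHSRP siRNA. It was well above background on controls 1 and 3 and on KHSRP 1 and 4, and not well above background on the other 4 arrays, so that each group held 2 arrays of each kind. The second IL6 probe was detected on 0 of 8 arrays. Within slides, the means of the brighter probe differed between groups by 0.27 and 0.26, against an SD within groups of 1.52 and 1.70.

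IL11, a gp130 ligand with its own receptor IL11RA, showed the opposite order of arrays. It stood at -2.44, -1.81, -2.73 and -1.95 in controls and at -2.61, -1.97, -2.10 and -2.88 with KHSRP siRNA, so that controls 1 and 3 and KHSRP 1 and 4 were the 4 lowest. KHSRP 4 was not well above background, so IL11 entered the test through the controls, the group in which it was higher. The difference was -0.16 (SE 0.27, 95% confidence interval -0.77 to 0.46, adjusted p = 0.841 by limma).

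LIF, which signals through LIFR and gp130, also had these 4 arrays lowest. At the tested probe it stood at 1.69, 2.06, 1.03 and 2.20 in controls and at 1.96, 2.24, 2.43 and 1.25 with KHSRP siRNA, and the groups overlapped. The difference was 0.22 (SE 0.32, 95% confidence interval -0.51 to 0.95, adjusted p = 0.802 by limma, 0.0412 with the series matrix numbers as a block). A second LIF probe was detected on 2 controls and 1 KHSRP siRNA array and was not tested.

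**Figure D3:**
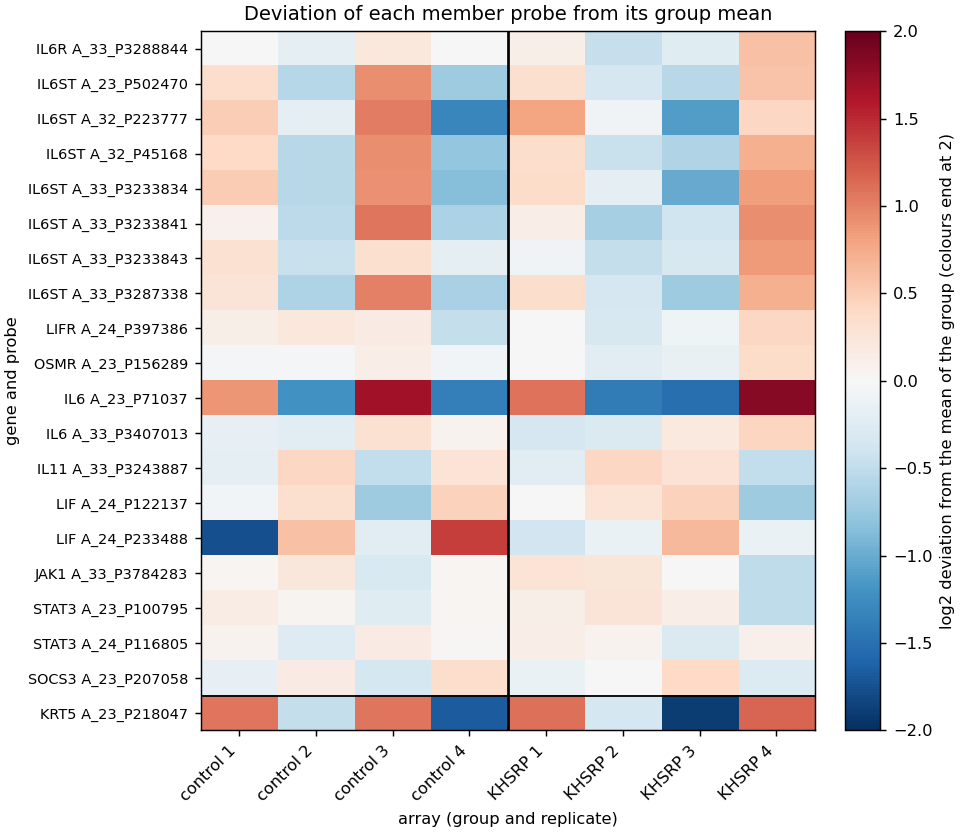
Rows are the 19 probes of the 10 genes and, under the line, KRT5. Columns are the 8 arrays, and the colour is the log2 deviation from the mean of the array's own group, red above and blue below. Most IL6ST rows and the brighter IL6 row share the red and blue arrays of KRT5, and IL11, the brighter LIF row and SOCS3 show the reverse.

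JAK1, the kinase bound to gp130, stood at -1.31, -1.13, -1.65 and -1.32 in controls and at -0.88, -0.91, -1.15 and -1.66 with KHSRP siRNA. KHSRP 1 and 2 were above all controls and KHSRP 4 was the lowest of the 8. The difference was 0.21 (SE 0.20, 95% confidence interval -0.25 to 0.66, adjusted p = 0.663 by limma). Without 1 array it ran from 0.11 without control 3 to 0.38 without KHSRP 4.

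STAT3, the transcription factor at the end of the route, had 2 tested probes. The brighter stood at -0.89, -1.21, -0.80 and -0.94 in controls and at -0.64, -0.70, -1.06 and -0.66 with KHSRP siRNA, with KHSRP 3 alone inside the control range. Its difference was 0.20 (SE 0.14, 95% confidence interval -0.13 to 0.53, adjusted p = 0.531 by limma), from 0.11 without control 2 to 0.30 without KHSRP 3. The dimmer stood at -1.97, -2.05, -2.36 and -2.07 in controls and at -1.61, -1.47, -1.60 and -2.23 with KHSRP siRNA, with KHSRP 4 alone inside the control range. Its difference was 0.38 (SE 0.18, 95% confidence interval -0.03 to 0.80, adjusted p = 0.303 by limma, 0.0290 with the series matrix numbers as a block). Both probes were thus higher with KHSRP siRNA in the mean, with a different array out of step in each, and neither was called without the block.

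SOCS3, the feedback inhibitor induced by STAT3, stood at -0.54, -0.21, -0.73 and -0.03 in controls and at -0.45, -0.31, 0.07 and -0.59 with KHSRP siRNA. The groups covered almost the same range. The difference was 0.06 (SE 0.20, 95% confidence interval -0.40 to 0.52, adjusted p = 0.928 by limma), and its sign turned under scaling to the median, to -0.01.

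The other genes of the route were read from lists by role. Of 82 such genes, 80 were on the array and 58 had a tested probe. KHSRP siRNA gave a higher level for 35 and a lower level for 23, with a median difference of 0.09. By limma 3 of the 58 (5.17%) were called, beside 6.19% of all genes, 2 higher and 1 lower, and 11 had an unadjusted p under 0.05, beside 20.8% of all genes. The groups did not overlap for 8 of the 58, beside 14.8% of all tested probes. These shares are near those of the whole array. With the series matrix numbers as a block 18 were called, 12 of them higher, a share of the 58 to be read beside the 33.0% of all genes.

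The enzymes that cut IL6R from the cell surface and their cofactors gave 1 call among 4 genes, beside 6.19% of all genes. RHBDF2, whose product iRhom2 helps the protease ADAM17 to mature, stood at 2.35, 1.94, 2.42 and 1.84 in controls and at 3.15, 3.15, 2.87 and 3.29 with KHSRP siRNA. All silenced arrays were above all controls, and RHBDF2 rose by 0.98 (SE 0.17, 95% confidence interval 0.60 to 1.36, adjusted p = 0.0133 by limma). Its relative RHBDF1 (0.18, SE 0.23), ADAM17 itself, the main IL6R sheddase (0.11, SE 0.11), and ADAM10, a second one (-0.08, SE 0.17), were not called.

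Of 9 factors that act on IL6 mRNA stability, 1 was called, beside 6.19% of all genes. ZFP36L1, which directs mRNAs with AU-rich elements to decay, stood at 4.90, 4.99, 4.88 and 5.04 in controls and at 5.59, 5.68, 5.71 and 5.52 with KHSRP siRNA. The groups were apart and the spread was small, and ZFP36L1 rose by 0.67 (SE 0.10, adjusted p = 0.00851 by limma). Its second tested probe was higher by 0.55 (SE 0.16) and was not called (adjusted p = 0.0829 by limma), nor was the first under scaling to the median (adjusted p = 0.0954). The related genes ZFP36L2 (0.37, SE 0.48) and ZFP36 (0.16, SE 0.18) were not called, although ZFP36L2 was with the series matrix numbers as a block (adjusted p = 0.0146). HNRNPD, another AU-rich element binding protein, was not called at its brighter probe (-0.24, SE 0.14) but was at its dimmer one (-0.53, SE 0.11, adjusted p = 0.0299 by limma).

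Among the other JAKs and STATs, 7 of the 8 listed were tested. By limma 0 were called, beside 6.19% of all genes, and 3 were at an unadjusted p under 0.05, beside 20.8%. STAT2, a transcription factor of the interferon response, had groups that did not overlap and a difference of 0.57 (SE 0.14, adjusted p = 0.0592 by limma), and was called under 6 of the alternatives, at an adjusted p of 0.0238 with the slide as a block and 0.00699 with the series matrix numbers as a block. JAK3, the kinase of the common gamma chain, was at 0.72 (SE 0.31, adjusted p = 0.242 by limma). Its adjusted p was 0.400 with the scanner-file numbers as a block and 0.00601 with the series matrix numbers as a block. STAT4 was at -0.31 (SE 0.13) and was not called without that block (adjusted p = 0.242 by limma, 0.0209 with it). It was detected on 4 controls but on 2 KHSRP siRNA arrays, so it entered the test through the group in which it was higher.

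**Figure D4:**
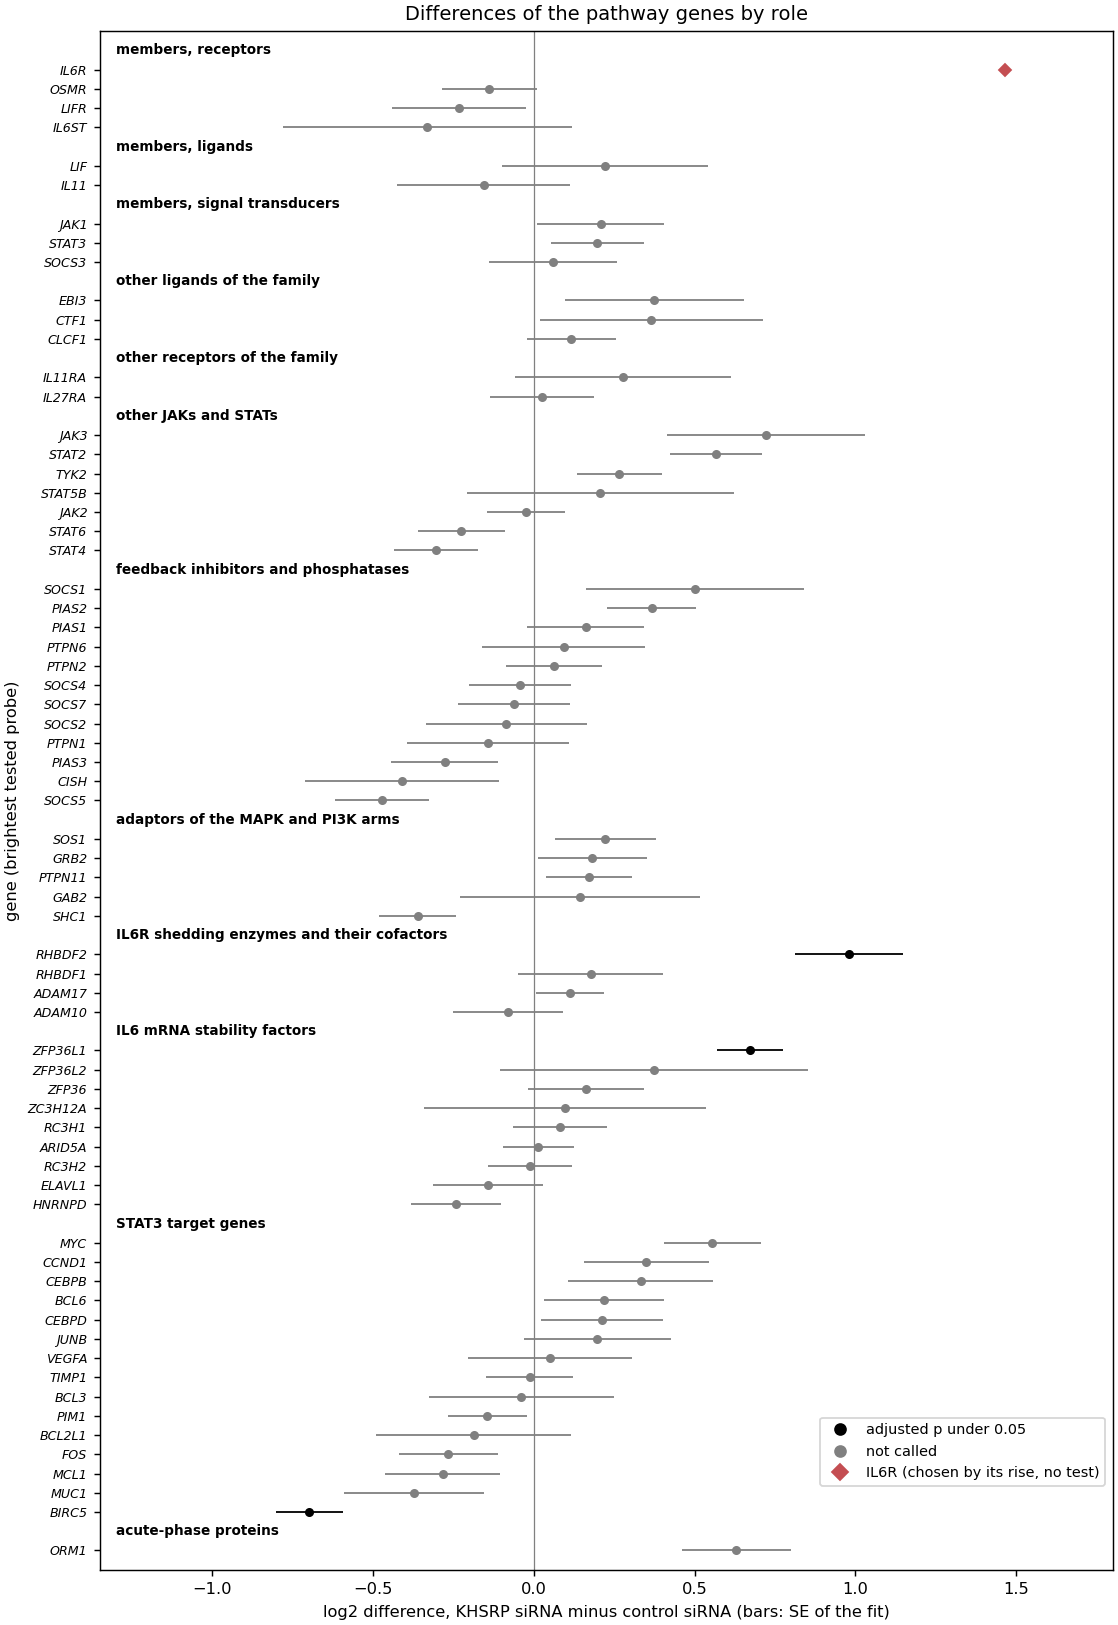
Points are log2 differences, KHSRP siRNA minus control siRNA, of the brightest tested probe of each gene, ordered by role, and bars are SE of the limma fit (n = 4 each). Black marks the 3 called genes, RHBDF2, ZFP36L1 and BIRC5, grey those not called. The red diamond is IL6R at 1.47, chosen by its rise and shown without a test.

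The other ligands of the family gave no call by limma, with 0 at an unadjusted p under 0.05, beside 6.19% and 20.8% of all genes. All 3 that were tested were higher in the mean. The cytokine subunit EBI3 (0.37, SE 0.28) and the ligand CTF1 (0.37, SE 0.35) were not called, although EBI3 was with the series matrix numbers as a block (adjusted p = 0.0478), and OSM, CNTF, IL27 and IL31 had no tested probe. Of the other receptors, IL11RA (0.28, SE 0.34) and IL27RA (0.02, SE 0.16) were tested and not called.

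Of the feedback inhibitors and phosphatases 12 were tested. By limma 0 were called and 2 were at an unadjusted p under 0.05, beside 6.19% and 20.8% of all genes. SOCS1, a JAK inhibitor, had a difference of 0.50 (SE 0.34, adjusted p = 0.493 by limma, 0.557 with the scanner-file numbers as a block). SOCS1 was called with the series matrix numbers as a block (adjusted p = 0.00482). SOCS5 was at -0.47 (SE 0.15, adjusted p = 0.109 by limma, 0.0159 with that block), with all silenced arrays below all controls. CISH was at -0.41 (SE 0.30). It was detected on 4 controls and 3 KHSRP siRNA arrays, so it entered the test through the group in which it was higher. Of the 5 tested adaptors that lead from gp130 to the MAPK and PI3K arms 0 were called by limma. An unadjusted p under 0.05 was found for 1, and both counts are to be read beside the same shares. SHC1 was at -0.36 (SE 0.12, adjusted p = 0.133, 0.0180 with that block), SOS1 at 0.22 (SE 0.16) and GRB2 at 0.18 (SE 0.17).

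Known STAT3 target genes differed in both directions in the mean. Of 15 tested, 7 were higher and 8 lower, the median was -0.01 and 1 was called, beside 6.19% of all genes. BIRC5, which encodes the mitotic and anti-apoptotic protein survivin, stood at 6.34, 6.42, 6.46 and 6.26 in controls and at 5.58, 5.62, 5.78 and 5.70 with KHSRP siRNA. The groups were apart, and BIRC5 fell by 0.70 (SE 0.10, adjusted p = 0.00796 by limma). MYC, a growth-promoting transcription factor, had groups that did not overlap and a difference of 0.56 (SE 0.15, adjusted p = 0.0728 by limma), which passed the threshold after quantile normalization (adjusted p = 0.0427). The mucin gene MUC1 (-0.37, SE 0.22) and the cyclin gene CCND1 (0.35, SE 0.19) were not called. With the series matrix numbers as a block 5 of the 15 were called, 3 of them higher, beside the 33.0% of all genes, among them MYC (adjusted p = 0.00396) and CCND1 (adjusted p = 0.0134).

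The acute-phase proteins, which interleukin-6 induces in liver, were mostly not well above background in these cells. Of 10 genes 1, ORM1, had a tested probe. It stood at -2.08, -2.23, -2.06 and -2.20 in controls and at -1.88, -1.16, -1.33 and -1.69 with KHSRP siRNA. All silenced arrays were above all controls, with a difference of 0.63 (SE 0.17, adjusted p = 0.0709 by limma), which passed the threshold without KHSRP 1 (adjusted p = 0.0499) and with the series matrix numbers as a block (adjusted p = 0.0351). It did not pass with normexp, where it was 0.20 (adjusted p = 0.222 by limma), or under scaling to the median, where it was 0.56 (adjusted p = 0.230 by limma).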

How the data were processed

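The authors hybridised Cy3-labelled RNA of 8 samples to Agilent whole human genome arrays. Per the file headers, the scanner values were extracted with Agilent Feature Extraction 11.5.1.1 and are linear intensity, background-subtracted and detrended within each array. The deposited series matrix holds log2 values shifted to the 75th percentile. In it, the columns of KHSRP siRNA 3 and 4 match the scanner files of each other, and array numbers here are those of the scanner files. Control and outlier spots were left out. The log2 of each remaining spot was taken, spots of a probe were averaged, and arrays were scaled to their 75th percentile. Groups followed the labels, and limma 3.58.1 (R 4.3.3) gave two-sided tests without a block. Symbols came from RefSeq accessions (GRCh38.p14) for 27241 of 42405 probes, and a gene's brightest tested probe stood for it.

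By scanner-file number, deviations from group means correlated at 0.57, 0.48, -0.69 and -0.67. By series matrix number all 4 pairs were positive (0.57, 0.48, 0.86, 0.86), and that number was used as a block. This block was thus picked from these same data. Crossed pairs within the division of the arrays were positive too. Control 1 with KHSRP 4 gave 0.44, control 3 with KHSRP 1 0.40, control 2 with KHSRP 3 0.45 and control 4 with KHSRP 2 0.41. Positive values therefore do not show that arrays of equal number were true pairs. Members, lists and alternatives were chosen with earlier results of these data known. Every probe of the 10 genes is named. From each further list the called genes and up to 3 uncalled genes with the largest differences are named, as are the 5 probes most like IL6R on each of 2 measures and its 3 nearest tested genes on each side. Some genes of the lists are not reported here. The fit was tested on simulated data with independent noise for each probe and array. These data left out the division shared by the arrays, so the fit was not tested under it.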

Additional observations from a re-analysis of the deposited data

Results flagged for a closer look

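Each group of 4 arrays was searched for a single array far from the other 3 at the probes named above, and 3 of 98 groups held one, where chance gives about 1 in 20. At the brighter STAT3 probe, KHSRP 3 stood at -1.06, below the other KHSRP siRNA arrays, of which the nearest was at -0.70. At the LIFR probe, control 4 stood at -3.64, with the nearest control at -3.05. At the brighter HNRNPD probe, control 3 stood at 5.67, with the nearest control at 5.91.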

How the results depend on the processing

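Alternatives to the scaling, background, filter, block, weights and test were run, and each array was left out in turn. The number of called probes, 1039 as reported, was 570 with median scaling, 319 with no filter, 156 with the scanner-file numbers as a replicate block, 5644 with the series matrix numbers as a replicate block, and 491 to 741 without 1 array. The 3 calls among the genes of the route became 2 with median scaling, 0 with no filter (42405 probes tested), 0 with the scanner-file block, 20 with the series matrix block, 5 each with quantile normalization, array weights and the mean of a gene's tested probes, and 3 to 4 without 1 array. The methods' t-test, Benjamini-Hochberg adjusted, called 1081 probes and 3 of these genes. RHBDF2, ZFP36L1 and BIRC5 kept their calls whichever 1 array was left out, and lost them with no filter and with the scanner-file block. The rise of IL6R was 1.27 to 1.62 without 1 array and 0.54 with normexp.

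Small differences changed sign. With median scaling SOCS3 was at -0.0149 and IL27RA at -0.0501. With normexp IL27RA was at -0.0045, IL6ST A_33_P3233843 at 0.037, LIFR at 0.0023 and STAT4 at 0.0189. Without 1 array, IL6ST A_33_P3233841 ranged from -0.641 to 0.0246, A_23_P502470 from -0.481 to 0.0647 and A_32_P45168 from -0.372 to 0.199. LIF ranged from -0.0172 to 0.460, IL11 from -0.322 to 0.0084, SOCS3 from -0.0716 to 0.175, IL27RA from -0.0825 to 0.111 and ADAM10 from -0.152 to 0.0383. The cause was not tested. The number of arrays limits the precision, and probes near background, such as those of IL6, LIFR and IL11, have only dim signals. The IL6R probe was dim in controls too, with a processed signal of 18.8 to 22.5 units, though well above background on every array. The 2.76-fold rise of IL6R rests on these dim control values at a single probe.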
